A study of Homo sapiens with 26 samples.

Results

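The regions described here are FOXA1 peaks that also have a peak in the lists of 2 variant forms of FOXA1, called nhaa and rraa in the labels, and none in the list of a further form, called dbd. They are rows of the FOXA1 peak list that share 1 bp or more with a row of the FOXA1nhaa list and with a row of the FOXA1rraa list, and none with a row of the FOXA1dbd list or of the list for HNF4A, a nuclear receptor of another family. The sites were chosen by the presence or absence of rows in these peak lists, which keeps 25760 of 155652 FOXA1 rows (16.55%), called the nhaa/rraa sites below. Chromatin immunoprecipitation and sequencing was done in BJ cells, a line of human foreskin fibroblasts, with 1 antibody to the HALO tag that all 5 proteins carried, after 48 hours of ectopic expression in every group. The groups were HALO-tagged FOXA1, FOXA1dbd, FOXA1nhaa, FOXA1rraa and HNF4A, each with 2 immunoprecipitated and 2 input libraries in the labels but 1 peak list in the files analysed (FOXA1 also has a down-sampled list, used as an alternative), so replicate error is unknown, and differences are given as values without tests or p-values. The labels do not spell out dbd, nhaa or rraa, and how expression level or depth goes with the length of each list was not tested.

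FOXA1 is a forkhead transcription factor of liver, lung, prostate and breast epithelium and is called a pioneer factor because it can bind its sites in closed chromatin. Its winged-helix domain reads a short core, written TGTTTAC or TATTTAC on 1 strand, through a recognition helix in the major groove, and also touches the phosphate backbone. In earlier work on FOXA1, mutants named with these letters replaced an asparagine and a histidine that contact bases (NHAA) or arginines that contact the backbone (RRAA) with alanine. AP-1, the FOS and JUN family that fibroblasts express strongly, reads TGANTCA and marks many of their active enhancers.

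The sequences below, 7 nhaa/rraa sites and 1 contrast, show what the nhaa/rraa sites look like in sequence. Each line gives the central 200 bases of a FOXA1 row (GRCh37, plus strand, read from the reference genome), with forkhead cores (TGTTTAC or TATTTAC) and AP-1 cores (TGANTCA) on either strand in capitals. The site in RPF1 had the highest FOXA1 score of those printed, and the site between genes on chromosome 12 the highest FOXA1nhaa fold enrichment. ATP11B and SYNE1 were the highest-scoring site with a core within 25 bp of the FOXA1nhaa summit and the site with the most cores. GRIK2, CDK8, RSRC1 and SPATS2L were added after their values were seen. The first pair were the top-scoring sites with 2 forkhead cores. The others were the top-scoring rows with a forkhead core and TGACTCA, 1 version of the AP-1 core. RSRC1 was picked among the nhaa/rraa sites and SPATS2L among rows that all 3 variants overlapped.
RPF1 intron, chr1:84947808-84948007: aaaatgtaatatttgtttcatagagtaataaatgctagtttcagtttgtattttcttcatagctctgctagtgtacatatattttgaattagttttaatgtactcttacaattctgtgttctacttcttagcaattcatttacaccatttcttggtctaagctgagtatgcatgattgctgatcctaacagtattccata
Between genes, chr12:67764209-67764408: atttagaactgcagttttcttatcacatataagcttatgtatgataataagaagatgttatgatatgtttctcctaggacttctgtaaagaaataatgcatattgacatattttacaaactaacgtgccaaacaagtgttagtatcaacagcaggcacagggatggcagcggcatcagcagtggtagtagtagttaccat
ATP11B intron, chr3:182620647-182620846: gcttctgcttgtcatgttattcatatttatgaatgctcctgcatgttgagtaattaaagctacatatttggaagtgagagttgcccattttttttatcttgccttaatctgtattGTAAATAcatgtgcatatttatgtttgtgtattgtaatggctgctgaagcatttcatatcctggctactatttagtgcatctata
SYNE1 intron, chr6:152536534-152536733: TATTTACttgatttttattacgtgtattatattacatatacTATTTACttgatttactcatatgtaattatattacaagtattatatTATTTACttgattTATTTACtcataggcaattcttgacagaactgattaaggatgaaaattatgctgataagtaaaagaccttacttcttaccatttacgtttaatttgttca
GRIK2 intron, chr6:102292148-102292347: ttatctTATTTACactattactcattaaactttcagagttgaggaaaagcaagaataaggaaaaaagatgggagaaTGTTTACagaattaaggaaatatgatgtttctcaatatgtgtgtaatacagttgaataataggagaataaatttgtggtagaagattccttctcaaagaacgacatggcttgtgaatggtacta
CDK8 intron, chr13:26851182-26851381: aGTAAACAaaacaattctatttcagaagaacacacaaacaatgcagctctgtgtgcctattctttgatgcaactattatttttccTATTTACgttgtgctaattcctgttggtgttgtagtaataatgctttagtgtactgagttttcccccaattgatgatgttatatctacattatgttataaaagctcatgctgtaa
RSRC1 intron, chr3:158133311-158133510: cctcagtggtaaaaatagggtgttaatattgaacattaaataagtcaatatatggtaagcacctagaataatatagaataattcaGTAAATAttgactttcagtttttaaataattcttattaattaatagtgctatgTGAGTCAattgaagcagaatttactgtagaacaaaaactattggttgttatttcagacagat
SPATS2L intron (contrast, with FOXA1dbd), chr2:201312330-201312529: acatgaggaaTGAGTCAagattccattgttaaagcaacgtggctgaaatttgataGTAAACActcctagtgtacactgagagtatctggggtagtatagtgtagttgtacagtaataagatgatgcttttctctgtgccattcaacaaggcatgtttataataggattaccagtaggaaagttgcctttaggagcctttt

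The strongest of these sites had no core in the printed window, and the site with most cores was weak. The RPF1 row (chr1:84947312-84948504) had a FOXA1 score of 925, against a median of 179 over the nhaa/rraa sites, and a FOXA1nhaa fold enrichment of 6.80. The row on chromosome 12 (67763987 to 67764630), 71557 bp from the nearest protein-coding start, that of CAND1, reached 21.6 for FOXA1nhaa fold enrichment, with 473 as its FOXA1 score. Its nearest FOXA1dbd row was 228 bp away, and the 2 rows did not overlap. The SYNE1 row (chr6:152536397-152536871) held 4 cores, at -97, -56, -10 and 3 bp from its midpoint, yet scored 118 in the FOXA1 list, below the median, with 8.57 as its FOXA1nhaa fold enrichment. In ATP11B (chr3:182620538-182620955) a single core lay 18 bp from the midpoint of a row with a score of 789. The RSRC1 row (chr3:158133065-158133756) scored 564, and the FOXA1nhaa row over it was enriched 4.50-fold. The SPATS2L row (chr2:201312139-201312720) scored 920 and was enriched 11.0-fold.

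Each list contributed to the selection in the following way. FOXA1nhaa overlapped 39.7% of all FOXA1 rows, FOXA1rraa 39.9%, FOXA1dbd 17.3% and HNF4A 1.68%. FOXA1nhaa and FOXA1rraa together overlapped 38856 rows, from which 12782 with FOXA1dbd and a further 314 with HNF4A were removed. These counts follow from the rule and describe the choice. The agreement of FOXA1nhaa and FOXA1rraa at these sites is an agreement of rows: 25449 FOXA1rraa rows overlapped the nhaa/rraa sites, and all 25449 were also rows of the FOXA1nhaa list, with the same coordinates and peak name. Their peak names began with FOXA1_3 (23043 rows), FOXA1_5 (2245), FOXA1_4 (156) or FOXA1_6 (5), prefixes that the labels do not explain. In the whole FOXA1nhaa list, 94.7% of FOXA1_5 rows and 36.9% of FOXA1_3 rows were also FOXA1rraa rows. The 7613 FOXA1rraa rows whose coordinates and name were in neither other list overlapped none of the nhaa/rraa sites. Whether FOXA1rraa bound these sites in a peak call of its own therefore cannot be read from the lists, and the FOXA1nhaa values given below for the nhaa/rraa sites are values of rows present in both. Of the FOXA1nhaa rows over a FOXA1 row, 62.6% (95% Wilson interval 62.2 to 63.0, which like all intervals here covers counting error over rows only) were also in the FOXA1rraa list, against 6.06% (5.84 to 6.29) of those outside FOXA1 rows. Over quintiles of the −log10 q-value the first share ran 59.5%, 58.4%, 57.95%, 63.25% and 73.99%, with the intervals of the last pair above those of the other quintiles. In all, 41253 of the 71202 FOXA1rraa rows were also FOXA1nhaa rows. How the FOXA1rraa list was put together is not given in the sources used here. These shares may follow from its making, so they describe the lists and are not a measure of shared binding.

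The nhaa/rraa sites lay between the other classes in strength. Their FOXA1 score, a value of the authors' peak caller that ranks peaks within the list, ran from 20 to 939 with a median of 179 and quartiles of 113 and 264. The median was 232 for the 12117 rows that all 3 variants overlapped, 114 for the 19577 rows that FOXA1nhaa alone overlapped and 98 for the 63949 rows that no list overlapped, each class without HNF4A. All FOXA1 rows had a median of 124. The classes overlapped widely, and the third quartile of the rows without any variant, 143, was above the first quartile of the nhaa/rraa sites. Their share of the FOXA1 rows rose from 7.75% in the lowest score quintile to 30.8% in the highest, and that of rows with all 3 variants from 1.71% to 21.0%. Row width rose with the score too, from a median of 220 bp to 551 bp over the nhaa/rraa sites of these quintiles, and a wider row can be overlapped more easily; its part in the shares was not tested.

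**Figure D1:**
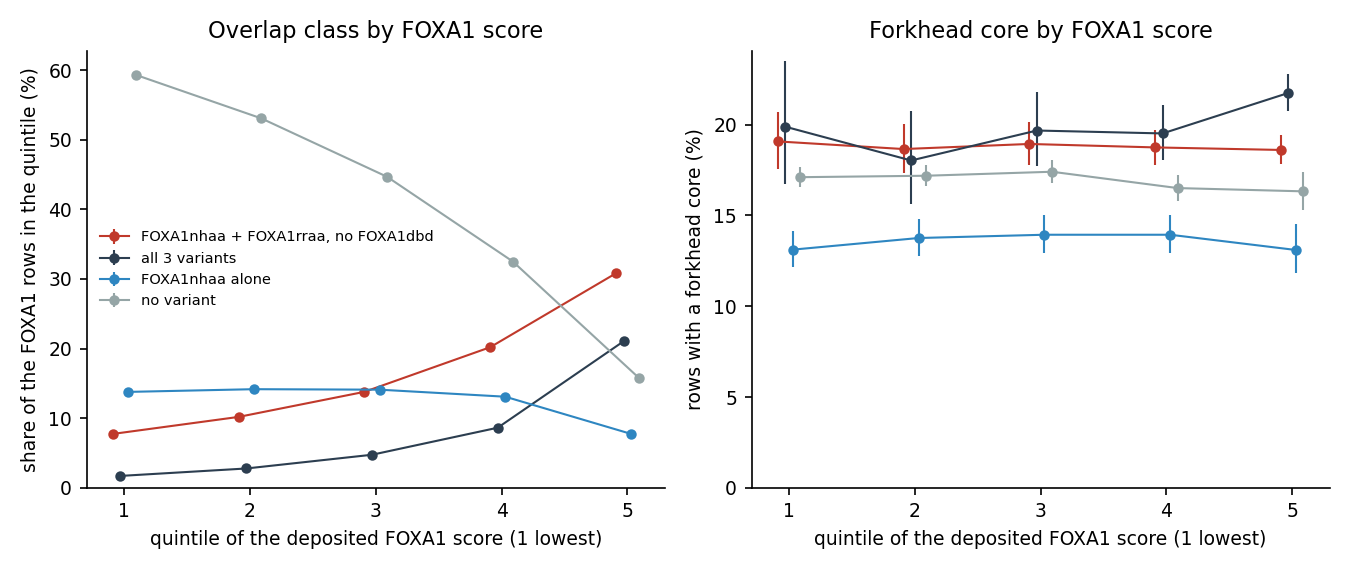
Left, the share of FOXA1 rows in each quintile of the deposited FOXA1 score that fell into 4 overlap classes; right, the share of each class with a forkhead core in the central 200 bp; bars are 95% Wilson intervals over rows. The nhaa/rraa sites rose from 7.75% to 30.8% of rows with the score, while their forkhead share stayed between 18.6% and 19.1%.

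The FOXA1nhaa row at these sites had a median fold enrichment of 6.06 (quartiles 4.95 and 7.61, range 1.98 to 21.6) and a median −log10 q-value of 10.0. The median fold enrichment was 6.40 with all 3 variants and 5.76 for FOXA1nhaa alone, a smaller difference than that in FOXA1 score. FOXA1 score and FOXA1nhaa fold enrichment were nearly unrelated across the 25760 sites (Pearson's r 0.123, Spearman's rho 0.0984; sites share the same 2 lists and are not replicates). The FOXA1nhaa row covered a median of 80.3% of the FOXA1 row, and its summit lay inside the FOXA1 row at 83.8% of sites, at a median of 84 bp from the midpoint. Widths were alike, with medians of 425 bp for FOXA1 and 422 bp for FOXA1nhaa.

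No FOXA1dbd row came closer than 74 bp to an nhaa/rraa site, and 298 sites had one within 250 bp. Neighbouring FOXA1 rows of different peak names were themselves at least 75 bp apart, and 27629 of 28831 FOXA1dbd rows lay wholly inside a single FOXA1 row. Just inside the rule, 29 sites had a FOXA1dbd row within 100 bp, with a median score of 124, and just outside it 586 rows with both other variants shared 100 bp or less with FOXA1dbd, with a median score of 157. At the other boundary, 1345 sites shared 100 bp or less with the common row (median score 101), and 307 FOXA1 rows without any overlap lay within 100 bp of such a row (median score 143). A FOXA1dbd row lay within 10 kb of 37.9% (37.3 to 38.5) of the nhaa/rraa sites, compared with 32.5% (32.1 to 32.8) of the rows that no list overlapped. That share was 35.7% (35.0 to 36.4) for FOXA1nhaa alone. Over all FOXA1 rows, which include those that FOXA1dbd overlapped, it was 45.7%. HNF4A rows lay within 10 kb of 26.2% (25.7 to 26.8) of the sites and of 24.3% (23.99 to 24.65) of the rows that no list overlapped. The HNF4A share was 25.4% (24.8 to 26.0) for FOXA1nhaa alone and 29.5% (28.7 to 30.3) for rows that every variant overlapped. Over all FOXA1 rows, which include those that HNF4A overlapped, it was 26.9% (26.6 to 27.1). For HNF4A the sites were thus close to FOXA1 rows in general.

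Of the cores searched, that of AP-1 differed most between the nhaa/rraa sites and sites that FOXA1dbd also overlapped. Of the nhaa/rraa sites, 13.65% (13.24 to 14.08) held TGANTCA within their central 200 bp, compared with 24.7% (23.97 to 25.5) of rows with all 3 variants. The single version TGACTCA, the preferred AP-1 sequence, was present in 6.62% (6.33 to 6.93) and 15.3% (14.6 to 15.9). Over all FOXA1 rows, which include those with FOXA1dbd, the shares of TGANTCA and TGACTCA were 14.95% (14.78 to 15.13) and 7.995%. The nhaa/rraa sites were thus slightly below FOXA1 rows in general. Across the 8 patterns of overlap with the 3 variants, the 4 patterns with FOXA1dbd had AP-1 shares from 22.35% to 26.5% and the 4 patterns without it from 12.3% to 13.65%. The share was 22.35% (21.3 to 23.4) where FOXA1dbd was the only variant on the row; these rows had a median score of 114. The difference was present within each score quintile, at 14.7% against 30.8% in quintile 1 and 12.3% against 23.3% in quintile 5, and the nhaa/rraa share was the lower in 22 of 23 chromosomes (1 to 22 and X), chromosome 19 being the exception with 10.4% against 10%. In the reference genome as a whole, 6.27% of consecutive 200 bp windows held TGANTCA.

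The forkhead core had another order. Either form, TGTTTAC or TATTTAC, was present within the central window of 18.75% (18.28 to 19.23) of the nhaa/rraa sites, with TGTTTAC in 7.76% and TATTTAC in 11.9%. The share was 20.7% (19.9 to 21.4) with all 3 variants, 13.6% (13.1 to 14.1) for FOXA1nhaa alone and 17.0% (16.7 to 17.3) without any variant, against 18.2% of all FOXA1 rows and 7.29% of genome windows. Each of the 4 patterns with FOXA1nhaa had a lower share than its counterpart without it: 13.6% against 17.0%, 18.75% against 22.1%, 15.3% against 22.3%, and 20.7% against 26.9%. Each of the 4 patterns with FOXA1rraa had a higher share than its counterpart without it, but of the 18096 FOXA1rraa rows over FOXA1 rows with FOXA1rraa alone, 17373 had the coordinates and name of a FOXA1 row. The nhaa/rraa share was below that of rows with all 3 variants in 19 of 23 chromosomes and above that of FOXA1nhaa alone in 21. Within score quintiles it ran from 18.6% to 19.1%, and did not rise with the score.

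The shares were also set against base composition. The central windows of the nhaa/rraa sites had a median GC content of 32.5% (quartiles 30% and 35.5%) and a median of 1 CG dinucleotide. Genome windows weighted to the same GC content held a forkhead core in 11% of cases, and the observed share was 1.71 times that value. The reversed core (CATTTGT or CATTTAT), which has the same bases, was 1.06 times its own GC-weighted value (19.45% against 18.4%). For rows with all 3 variants the forkhead ratio was 1.95, for FOXA1nhaa alone 1.25 and for rows without any variant 1.51. The AP-1 ratio was 2.10 for the nhaa/rraa sites, 3.78 with all 3 variants and 2.31 over all FOXA1 rows.

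**Figure D2:**
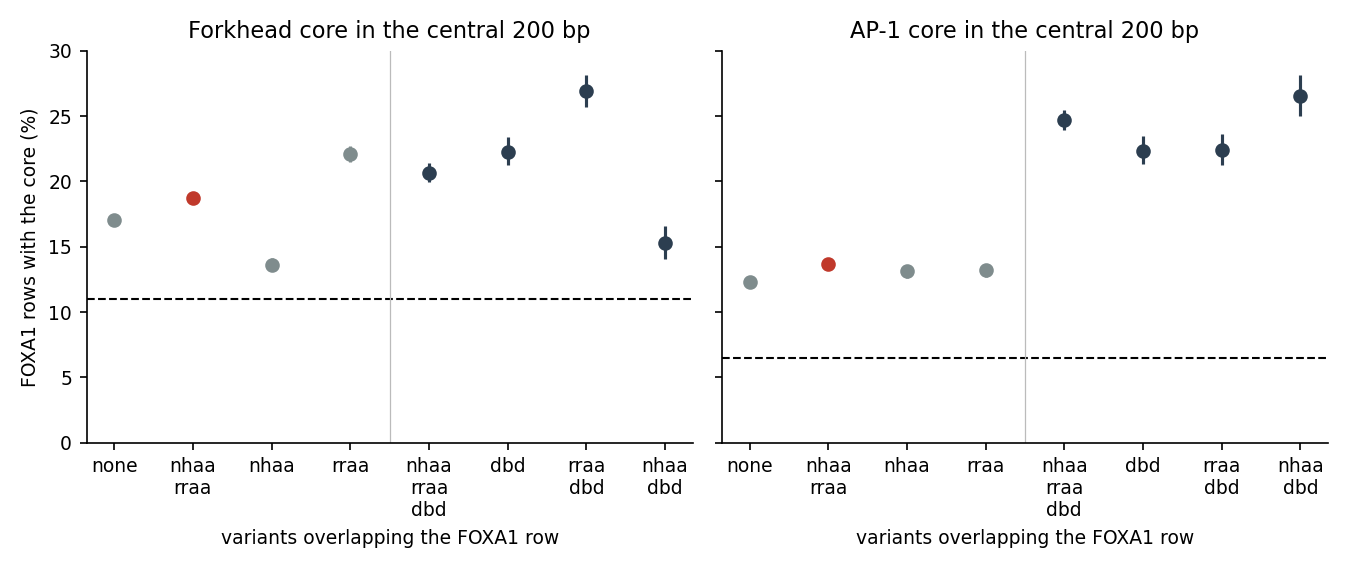
Share of FOXA1 rows with a forkhead core (left) or an AP-1 core (right) in the central 200 bp, for the 8 patterns of overlap with the variants (rows with HNF4A left out); red marks the nhaa/rraa sites, bars are 95% Wilson intervals over rows and the dashed line is the share of genome windows weighted to the GC content of the nhaa/rraa sites. AP-1 shares lay between 12.3% and 13.65% without FOXA1dbd and between 22.35% and 26.5% with it.

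Cores of both kinds were concentrated at the middle of the rows. Within 50 bp of the FOXA1 midpoint the nhaa/rraa sites held 2.79 forkhead cores per 100 rows in each 25 bp bin, 2.28 times the value at 500 to 1000 bp. Around the FOXA1nhaa summit the ratio was 2.04, so the cores lay no closer to that summit than to the FOXA1 midpoint. Rows with all 3 variants had ratios of 2.91 and 2.60, and rows with FOXA1nhaa alone 1.77 and 1.41. For AP-1 the midpoint ratio was 2.16 at the nhaa/rraa sites, 2.21 for FOXA1nhaa alone and 4.28 with all 3 variants. Away from the centre the classes came together, with 0.881 to 0.903 AP-1 cores per 100 rows and bin at 500 to 1000 bp.

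**Figure D3:**
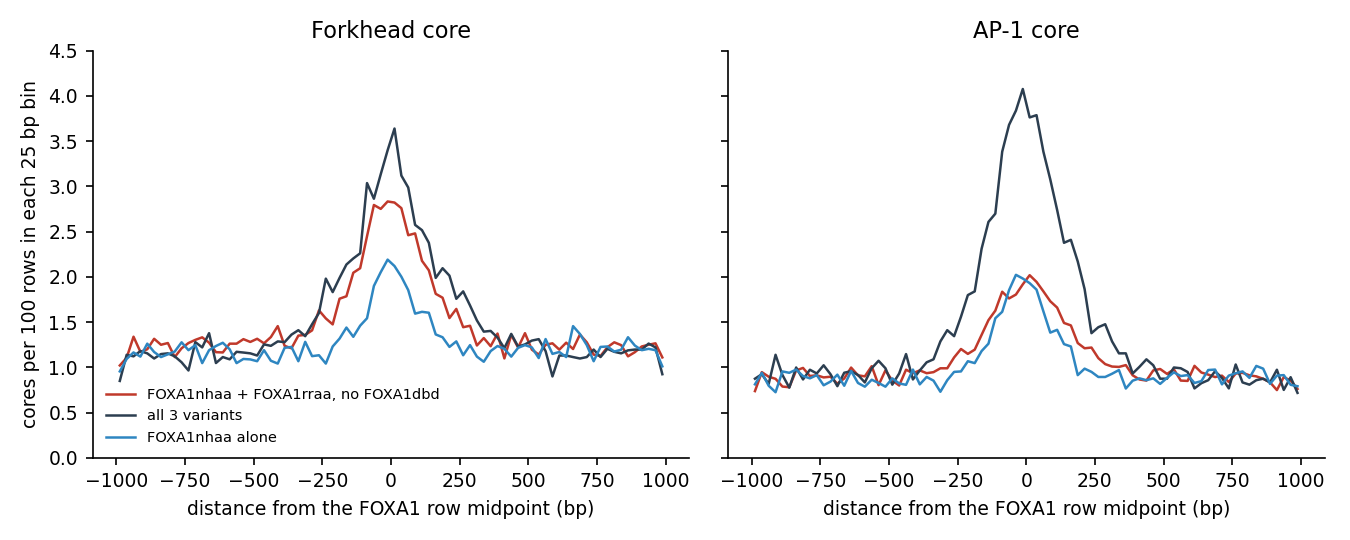
Forkhead (left) and AP-1 (right) cores per 100 rows in 25 bp bins around the midpoint of the FOXA1 row, for the nhaa/rraa sites, rows with all 3 variants and rows with FOXA1nhaa alone. The centre held 2.79 forkhead cores per 100 nhaa/rraa sites and 3.32 per 100 rows with all 3 variants, and 1.92 and 3.87 AP-1 cores.

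Among the nhaa/rraa sites, peaks with and without a core at the summit were alike in strength. The 4335 sites with a forkhead core within 100 bp of the FOXA1nhaa summit and the 21425 without had the same median fold enrichment, 6.06, and median FOXA1 scores of 180 and 178. Over quintiles 1 to 5 of FOXA1nhaa fold enrichment the share with such a core was 17.6%, 16.3%, 16.2%, 16.9% and 17.1%, with overlapping intervals. Over equal groups by FOXA1 score it ran from 16.3% to 17.7%.

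Other cores differed less. The TEAD core GGAATG, read by factors of the Hippo pathway, was in 12.3% (11.9 to 12.7) of the nhaa/rraa sites and 13.9% (13.3 to 14.6) of rows with all 3 variants, against 10.6% of genome windows. The SOX core ACAATG was in 19.45% and 20.1%, the RUNX core TGTGGT in 13.1% and 13.7%, and the C/EBP core TTGCNNCAA in 2.57% of both; genome windows held them in 12.4%, 13.5% and 2.26%. The ETS core CCGGAA was in 0.446% (0.372 to 0.536) and 0.660% (0.531 to 0.821), the GC box GGGCGG in 0.233% and 0.198% and the HNF4 core CAAAGTCCA in 0.198% and 0.272%. Genome windows held these in 1.28%, 2.88% and 0.253%, so the ETS core and the GC box were rarer at the sites than in unweighted genome windows. FOXA1 rows in general were similar. Over all of them the TEAD, SOX, RUNX and C/EBP cores were in 11.95%, 18.6%, 13.2% and 2.43%. The ETS core, GC box and HNF4 core were in 0.518%, 0.283% and 0.261%. Rarity of the ETS core and GC box was therefore not particular to the nhaa/rraa sites. The genome shares in this paragraph were not weighted to the GC content of the sites. How far base composition goes with these differences was not tested. The reversed forkhead core, in 19.45% of the sites, was in 12.3% of unweighted genome windows and 18.4% of weighted ones. The palindromic NFI motif (TTGGC and GCCAA, 5 bases apart) was found in 0 of 25760 sites, which allows a share of up to 0.0149% (upper Wilson bound), and in 0.0124% of genome windows.

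Like FOXA1 rows in general, most of the sites lay in introns. Midpoints within 1000 bp of an annotated transcription start were set apart first, so the intron, exon and between-gene shares leave them out. Introns held 66.75% (66.2 to 67.3) of their midpoints, 17.0% (16.6 to 17.5) lay between genes, 0.672% in coding exons and 6.09% in other exons, in GENCODE 44 lifted to GRCh37. Over all FOXA1 rows introns held 64.6% (64.4 to 64.9) and 21.35% lay between genes. The share between genes was 20.5% (19.8 to 21.2) with all 3 variants and 23.2% (22.85 to 23.5) without any variant. Within 1000 bp of any annotated transcription start lay 9.47% (9.12 to 9.84), compared with 9.29% (8.79 to 9.82) with all 3 variants, 8.87% of all FOXA1 rows and 7.50% of the known bases of the genome. Starts of protein-coding transcripts accounted for 2.92%. The median distance to a start was 8766 bp. Other sites with very high scores lay between genes on chromosome 12 (85339576 to 85340254, scored 904) and chromosome 1 (221756377 to 221757175, score 843) and in an intron of KIF13B on chromosome 8 (29045492 to 29046312, score 840). None of these 3 rows had a forkhead or AP-1 core in the central 200 bp. The next highest FOXA1nhaa fold enrichments, 20.1 and 19.6, belonged to rows between genes on chromosome 5 (102629142 to 102630618) and chromosome 13 (41992906 to 41993341), also without either core. The highest-scoring row with all 3 variants lay 5146 bp from the start of PTH1R on chromosome 3 (46948550 to 46949919), scored 1518, was enriched 21.85-fold and had neither core.

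Chromosome X held few nhaa/rraa sites. On the autosomes they made up 11.65% to 18.0% of FOXA1 rows, lowest on chromosome 19 and highest on chromosome 13. On chromosome X they were 168 of 2222 FOXA1 rows (7.56%), or 1.08 per Mb. FOXA1 rows themselves were sparse there, at 14.3 per Mb against 16.7 on chromosome 19 and 56.2 on chromosome 1. FOXA1nhaa overlapped 15.6% of the FOXA1 rows of chromosome X, compared with 28.0% to 41.0% on the autosomes, and FOXA1dbd 4.95%, compared with 15.6% to 18.7%. Rows with all 3 variants were 1.26% of FOXA1 rows there and 5.07% to 9.13% on the autosomes. The median score of the chromosome X sites was 126, against 163 to 188 on the autosomes. How far copy number, mappability or depth goes with these values was not tested.

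**Figure D4:**
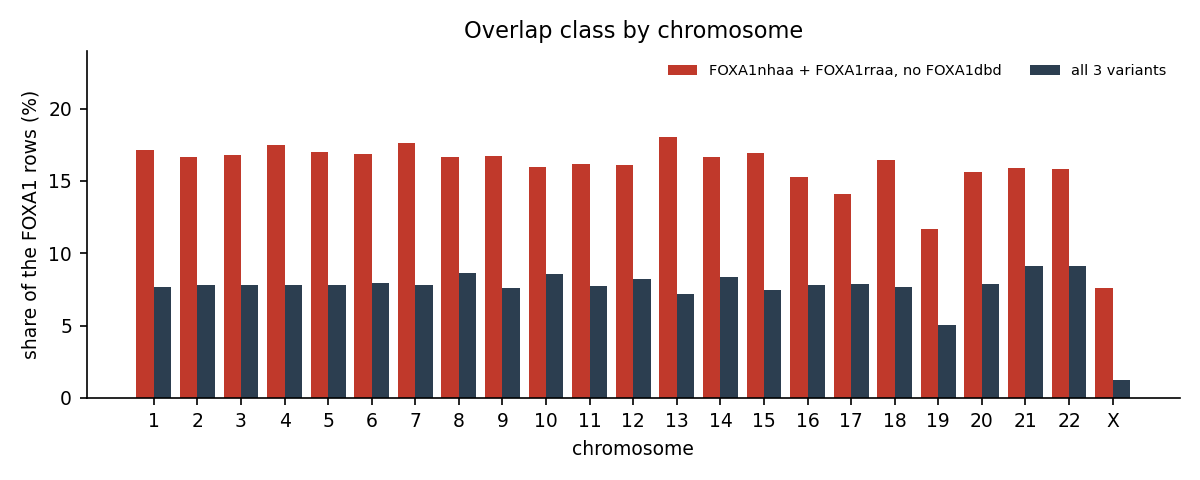
Share of the FOXA1 rows of each chromosome that were nhaa/rraa sites (red) or were overlapped by all 3 variants (dark); bars start at 0 and chromosome Y, with 21 sites, is not drawn. Autosomes lay between 11.65% and 18.0% for the nhaa/rraa sites and chromosome X at 7.56%.

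Along the genome the sites were spread rather than confined to a few loci. They fell into 11277 of the 20203 windows of 100 kb that held a FOXA1 row, with exactly 1 site in 5004 windows and 5 or more in 1132. Neighbouring sites were a median of 29834 bp apart, and 25.8% of neighbours were 10 kb apart or less. The densest window, inside ASCC3 on chromosome 6 (101200001 to 101300000), held 19 sites among 48 FOXA1 rows, of which 8 overlapped FOXA1dbd. Next came windows at PIK3C3 on chromosome 18 and DST on chromosome 6, with 16 sites each among 34 and 43 FOXA1 rows. NIPBL on chromosome 5 had 15 of 45, and TAX1BP1 and JAZF1 on chromosome 7 had 14 of 35.

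Protein-coding gene bodies contained 18744 of the sites, in 5938 of 20136 genes, and 379 genes had 10 or more. Any FOXA1 row at all was found in 10867 of the 20136 genes. ASCC3, which encodes a helicase of DNA alkylation repair and ribosome quality control, had the most, 47 among 163 FOXA1 rows (28.8%) over 373 kb. DST, the gene of the cytoskeletal linker dystonin, had 43 of 145 (29.7%). NEGR1, a neuronal adhesion gene, had 42, but of 316 FOXA1 rows (13.3%), 164 of which no list overlapped. The other genes named for their number were long ones too: VPS13B with 41 sites, DPYD with 40, PTPRK with 36, MAGI2 and ROBO1 with 35, MED13L with 34, RBMS3 with 33, NBEA with 32, TBC1D5 with 31, GRIK2 and PRKG1 with 30 and CACNA2D1 with 29. Their shares of FOXA1 rows ran from 13.3% in NEGR1 to 31.8% in MED13L.

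Ranked by share instead, other genes led. Among the 1561 genes with 20 or more FOXA1 rows the median share of nhaa/rraa sites was 18.75%, with 9.09% and 30% at the 10th and 90th percentiles, and 6 genes had none. NLK, which encodes a kinase that acts on Wnt signalling, had the highest share, 14 of 29 rows (48.3%), with 1 row of all 3 variants and 7 without any. TMOD3, which encodes an actin-capping protein, had 10 of 21 (47.6%), SPTLC2, a gene of sphingolipid synthesis, 10 of 22 (45.45%) and UBE2D3, a gene of ubiquitin conjugation, 9 of 20 (45%). ARFIP1, DHX15 and DYNC1I2 followed with 10 of 23 each (43.5%), then KPNA1 with 9 of 21 (42.9%), AGFG1 with 13 of 31 (41.9%) and CDC14A with 10 of 24 (41.7%). None of these 10 genes was among the 15 with the most sites. They are the extremes of 1561 small counts and were picked by their shares, which are a description.

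**Figure D5:**
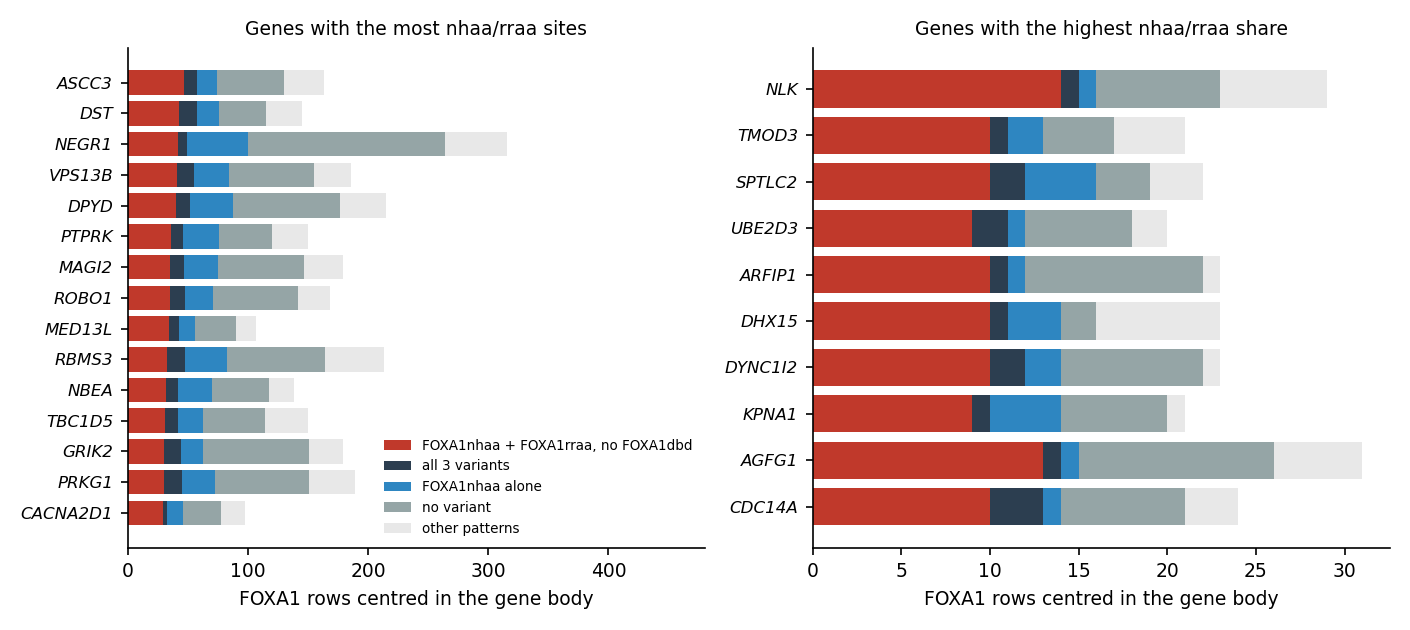
FOXA1 rows centred in the body of each gene, split by overlap class, for the 15 protein-coding genes with the most nhaa/rraa sites (left) and the 10 with the highest share among genes with 20 or more FOXA1 rows (right). ASCC3 had 47 sites of 163 rows and NLK 14 of 29.

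Lists of genes were counted over the gene body and 10 kb on either side. At least 1 nhaa/rraa site was found at 19 of 29 fibroblast matrix and contractile genes, 15 of 29 fibroblast transcription factor genes, 4 of 16 AP-1 subunit genes, 9 of 40 liver genes, 3 of 16 hormone-response genes and 8 of 38 ribosomal protein genes, against 35.4% of all protein-coding genes (the liver list has 41 genes, of which 40 were found in the annotation). As a share of the FOXA1 rows at these genes, the sites made up 18%, 16.9%, 23.8%, 18.0%, 8.97% and 15.6% in the same order, against 17.8% over all protein-coding genes. The median number of sites per gene was 1 for both fibroblast lists and 0 for the other lists and for all genes. Gene length differed too, with medians of 36.3, 43.75, 9.27, 24.2, 24.4 and 5.73 kb in that order, against 27.2 kb over all genes. A longer gene has more room for a site, and the part of length in these counts was not tested. The AP-1 and hormone-response shares rest on 5 of 21 and 7 of 78 rows. CALD1, which encodes the actin-binding protein caldesmon, had 16 sites among 44 FOXA1 rows (36.4%), FBN1, the fibrillin gene, 15 of 61 (24.6%) and COL5A2, a fibrillar collagen gene, 12 of 83 (14.5%). RUNX1 had 14 of 110, TEAD1 10 of 54 and RUNX2 8 of 45. ATF3 had 2 of 6, and BATF and FOSL2 1 each. In the liver list AFP, the alpha-fetoprotein gene, had 4 of 9, NR5A2 3 of 14 and CPS1 2 of 16. FKBP5 had 4 of 19 and ESR1 2 of 25 in the hormone-response list, and RPL7, RPLP1 and RPS24 had 2 each.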

How the data were processed

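Protein binding was measured by chromatin immunoprecipitation and sequencing. Depth per library is not given by the lists, so its precision is unknown. Bowtie2 2.3.4.1, Picard, GATK 4.2.6.0, bedtools 2.27.1, MACS2 2.2.7.1 and deepTools 3.5.0 and the build hg19 are named in the submitters' processing notes, with no role or order; pooling of replicates and use of inputs are not given in the sources used here. The deposited FOXA1 list holds a score per peak. The other deposited lists hold a score, a fold enrichment, −log10 p-values and −log10 q-values and a summit, all the authors' own values, used only to describe or rank peaks. In all, 0 list rows ended beyond their GRCh37 chromosome.

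Rows were used as deposited, with identical coordinates counted once, on chromosomes 1 to 22, X and Y. Some peaks were present as several rows, each counted separately. Leaving aside an ending of _r and a number, 12568 FOXA1 rows shared a peak name with another row. Names of 1351 nhaa/rraa sites (5.25%) had this ending, against 4.15% of all FOXA1 rows. The narrowest site was 1 bp wide. Joining FOXA1 rows by peak name gave 24828 sites among 149186 regions. Groups came from the sample titles; the 6 H2B samples were not analysed here. Overlap meant 1 bp or more. Where several FOXA1nhaa rows overlapped a FOXA1 row, one common to the FOXA1rraa list came first, then the longest overlap. Both strands of the 200 bp around row midpoints were scanned for cores, counted by start position, with overlapping matches kept. Python 3.11.15, pandas 2.3.3, scipy 1.17.1 and pysam 0.24.0 were used. Code was tested on 4000 simulated rows and recovered 100% of the planted sites. Named sites were the top ranks by score, FOXA1nhaa fold enrichment and core number; named genes were the 15 with most sites, the 10 with the highest share among genes with 20 or more FOXA1 rows, and the top genes of each list. Some items under this rule are not reported here. The members, lists, motifs and rules were chosen with earlier results of these data known.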

Additional observations from a re-analysis of the deposited data

How the results depend on the processing

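Among the values recomputed under 17 alternative settings, 73 stayed within counting error (counts of sites within 1.5 times), 18 moved and 1 reversed. The 73 include the median score with the central 100 bp and with windows around FOXA1nhaa summits. Those settings change only the sequence window, so the score could not move. The number of sites was 12946 with FOXA1nhaa and FOXA1rraa rows of −log10 q 10 or more, 6322 in the down-sampled FOXA1 list (38291 rows) and 0 once FOXA1rraa rows that are FOXA1nhaa rows were left out, an alternative chosen after seeing the data. The median score was 190 with the stricter rows and 224 in the upper 50% of FOXA1 rows. The forkhead share was 10.05% in the central 100 bp and 16.8% around FOXA1nhaa summits. The reversed core, a different sequence that serves as a composition control, was in 19.45%. Its difference from rows with all 3 variants, 0.735 percentage points (-0.117 to 1.58), was the 1 value counted as reversed. For the forkhead core that difference was -1.91 (-2.78 to -1.05), and it ran from -2.32 to -1.26 over the alternatives that kept this core. In the down-sampled list it was -1.51 (-3.27 to 0.207), an interval that includes 0. The AP-1 share was 13.1% with the stricter rows, 13.15% in the upper 50% and 7.05% in 100 bp. The AP-1 difference from all 3 variants, -11.1 percentage points, was -13.1 with centres within 200 bp, -10.05 without FOXA1dbd within 500 bp, -10.2 with the stricter rows, -12.0 with the most frequent FOXA1nhaa peak-name prefix and -6.42 in 100 bp. The share near transcription starts was 21.3% within 2500 bp and 2.92% for protein-coding transcripts. Site counts of the 25 named genes moved by over 1.5 times in 56 cases and stayed within it in 219; 24 of the 56 came with the stricter rows and 25 with the down-sampled list. The AP-1 values and the differences were added after seeing the data. No paired analysis was possible because there was 1 peak list per protein, without replicate numbers. Replicates could therefore not be left out in turn.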

Other observations

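G was rare after the forkhead core, from 2.36% to 2.82% over the classes. At 5152 cores of the nhaa/rraa sites, the base after the C of TGTTTAC or TATTTAC was A in 41.6%, T in 40.02%, C in 15.9% and G in 2.45%, and the base before the core was A in 37.1%. ATATTTACT was the commonest extension by a base on each side, at 10.5% (9.66 to 11.3) of cores, followed by ATATTTACA at 10.1%. With all 3 variants the order was ATATTTACA at 11.25% and ATATTTACT at 8.54% (7.56 to 9.63).

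Sites with several cores were rare. Exactly 2 forkhead cores were found in 445 of the nhaa/rraa sites (1.73%, 1.58 to 1.89) and 3 or more in 32, against 2.42% (2.16 to 2.71) with 2 among rows with all 3 variants. In these 445 windows the starts of the cores were a median of 58 bp apart, 13.7% were 20 bp apart or closer, and 52.8% had both cores on 1 strand. The commonest spacing was 35 bp, in 12 windows.

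Words of 7 bases were counted on either strand, without a list of motifs. Among 3378 words found in at least 2% of the nhaa/rraa sites, that most enriched over rows without any variant was CTGCTGC (2.298% against 1.475%, 1.56 times), followed by GCTGTTA (4.80% against 3.18%) and CAGCTTC (2.66% against 1.78%). In the same order these words were in 2.32%, 4.48% and 2.56% of rows with all 3 variants. With FOXA1nhaa alone they were in 2.29%, 4.46% and 2.53%, so they were not particular to the nhaa/rraa sites. Of the 15 words with the highest ratio, none was a forkhead core. AAATTGG, at 3.34% against 4.95%, was among the lowest, with 3.47% for all 3 variants and 3.61% for FOXA1nhaa alone. The word with the highest ratio of rows with all 3 variants to the nhaa/rraa sites was TGACTCA, at 15.3% against 6.62%, and the next 5 words each held TGACTC or TGAGTC on 1 strand. They were followed by GTGTACA, at 6.36% against 4.25%. These words were picked as extremes of the same data and have no test.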
